A study of Mus musculus with 12 samples.

Results

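Open chromatin was compared between leukaemic bone marrow cells carrying the fusion MLL-ENL (ME, 3 libraries) and wild-type bone marrow cells (Control, 3 libraries). These are 6 of the 12 libraries of the study, which also held 3 libraries each of MLL-AF9 (MA9) and BRD9-NUTM1 (BN1) leukaemia. All mice were C57BL/6, and both groups were labelled as CD45.2+ cells, the form of the leukocyte phosphatase CD45 that this strain carries. Control had the genotype CD45.2(+), and ME the genotype CD45.2(+) MLL-ENL. ATAC-seq maps accessible DNA by the places where a transposase can insert adapters. An Active Motif kit was used on 150000 FACS-sorted cells for every sample. The labels did not give the age or sex of the mice, how the fusion was introduced, or whether replicates came from separate animals. The p-values below therefore measure the spread between these libraries, which may be technical.

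MLL-ENL joins the amino-terminal part of the histone methyltransferase KMT2A (MLL) to the carboxy-terminal part of MLLT1 (ENL). ENL belongs to transcription elongation complexes and binds the complex of DOT1L, which methylates histone H3 inside transcribed genes. Fusions of this type are known to keep HOXA genes and their cofactor MEIS1 active and to arrest myeloid cells at a progenitor stage. Wild-type marrow is by contrast a mixture in which maturing neutrophils, erythroid precursors and B cells are abundant.

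On chromosomes 1 to 19, overlapping peaks of the 6 libraries gave 30082 merged regions. Gained regions are those with a peak in all 3 ME libraries and in no Control library, and lost regions those with a peak in all 3 Control libraries and in no ME library. Peak strength was expressed as a percentile, the position of the peak's deposited signal within its own library's list, with 100 the strongest. Percentiles from lists of different length describe a library and do not by themselves show a change. Fewer cells of a type in a sample and less accessibility per cell cannot be told apart in these bulk libraries.

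Promoters of selected genes are shown by the 250 bases before the RefSeq start of the gene (GRCm38.p6, 5′ to 3′ in the direction of transcription). They were selected by gene and not by strength. Capitals mark matches on either strand to 5 motifs. These are AGATAA for the GATA factors, GAGGAAGT for the ETS factor PU.1, TGTGGT for the RUNX family, TTGCNNCAA for the CEBP family, and AACNGNC for MYB. The first 4 had a peak in all ME and no Control library. Among the 36 promoters with this pattern, Dyrk1a, Caprin1 and Gm7361 had higher mean percentiles than all 4, and Hoxa3 had the lowest. Others, such as Spry2, lay above Ctsg, Ms4a3 and Hoxa3. Mpo encodes myeloperoxidase and Ctsg cathepsin G, both made for granules at the promyelocyte stage. Ms4a3 is a membrane protein of granulocyte and monocyte progenitors, and Hoxa3 a homeobox factor.
Mpo, chr11:87793534-87793783, plus strand: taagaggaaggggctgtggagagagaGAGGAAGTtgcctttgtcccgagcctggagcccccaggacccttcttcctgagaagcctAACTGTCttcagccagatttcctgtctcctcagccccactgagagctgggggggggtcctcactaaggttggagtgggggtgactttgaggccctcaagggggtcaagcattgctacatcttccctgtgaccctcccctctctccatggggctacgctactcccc
Ctsg, chr14:56102575-56102824, minus strand: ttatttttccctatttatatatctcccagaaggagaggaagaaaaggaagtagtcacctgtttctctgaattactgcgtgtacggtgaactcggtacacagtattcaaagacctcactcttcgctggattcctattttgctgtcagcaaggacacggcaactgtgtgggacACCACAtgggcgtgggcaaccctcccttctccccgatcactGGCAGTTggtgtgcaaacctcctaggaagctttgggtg
Ms4a3, chr19:11640852-11641101, minus strand: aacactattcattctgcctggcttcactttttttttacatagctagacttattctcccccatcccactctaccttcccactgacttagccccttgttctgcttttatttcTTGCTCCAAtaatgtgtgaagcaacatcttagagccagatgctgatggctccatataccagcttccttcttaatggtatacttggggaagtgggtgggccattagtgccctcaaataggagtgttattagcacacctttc
Hoxa3, chr6:52213068-52213317, minus strand: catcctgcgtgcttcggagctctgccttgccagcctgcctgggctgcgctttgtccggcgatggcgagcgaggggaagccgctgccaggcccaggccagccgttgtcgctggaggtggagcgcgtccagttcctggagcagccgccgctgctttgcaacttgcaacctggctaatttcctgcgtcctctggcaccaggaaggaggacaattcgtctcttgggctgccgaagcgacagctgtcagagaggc

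The other 4 had a peak in all Control and no ME library. S100a8 and S100a9 encode the paired chains of calprotectin, the main cytosolic protein of neutrophils. Hba-a1 encodes alpha globin, and Pou2af1 a coactivator of octamer-binding factors in B cells.
S100a8, chr3:90668821-90669070, plus strand: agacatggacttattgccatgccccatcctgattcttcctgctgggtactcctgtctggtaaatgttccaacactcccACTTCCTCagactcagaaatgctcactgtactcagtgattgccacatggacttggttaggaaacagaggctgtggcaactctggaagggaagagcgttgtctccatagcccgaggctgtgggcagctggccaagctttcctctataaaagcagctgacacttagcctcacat
S100a9, chr3:90695722-90695971, minus strand: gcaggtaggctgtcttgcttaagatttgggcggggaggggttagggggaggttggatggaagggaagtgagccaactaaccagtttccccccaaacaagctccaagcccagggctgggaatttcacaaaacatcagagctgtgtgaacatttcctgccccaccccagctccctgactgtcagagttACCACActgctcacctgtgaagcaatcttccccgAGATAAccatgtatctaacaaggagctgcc
Hba-a1, chr11:32283422-32283671, plus strand: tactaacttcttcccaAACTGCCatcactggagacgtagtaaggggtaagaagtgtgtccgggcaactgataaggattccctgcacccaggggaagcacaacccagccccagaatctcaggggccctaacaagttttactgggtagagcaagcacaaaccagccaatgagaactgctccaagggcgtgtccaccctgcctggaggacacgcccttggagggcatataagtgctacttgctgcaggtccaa
Pou2af1, chr9:51213440-51213689, plus strand: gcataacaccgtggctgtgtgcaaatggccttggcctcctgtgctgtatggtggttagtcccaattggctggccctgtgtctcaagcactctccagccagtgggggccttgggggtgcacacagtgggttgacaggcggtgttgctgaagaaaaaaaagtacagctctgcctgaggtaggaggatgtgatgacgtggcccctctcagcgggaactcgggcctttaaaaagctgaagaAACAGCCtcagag
No motif was marked in every promoter, and Hba-a1 and Pou2af1 were marked with MYB alone. Hoxa3 held none of the 5 motifs in these bases. Only the exact letters given were searched, so variants such as TGATAA in Hba-a1 are unmarked. A match describes the letters only.

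The ME lists were far shorter than the Control lists. They held 9663, 9615 and 8546 peaks, against 27509, 25541 and 28023 in Control (9275 ± 632 against 27024 ± 1310, mean ± SD, n = 3 each). The groups did not overlap, and the ratio of the means was 0.343 (two-sided exact permutation test, p = 0.1, the smallest that 3 against 3 allows). ME peaks covered 3.89 ± 0.229 Mb and Control peaks 12.9 ± 0.677 Mb (n = 3 each, exact permutation p = 0.1). Read numbers are not in the lists, so the depth behind each call is unknown. A missing peak was not called and was not shown to be closed chromatin.

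Peaks of 2 kb or more made up 0.0974% ± 0.0126 of ME lists and 0.543% ± 0.0428 of Control lists. Gene-end peaks, at most 1 kb from where a protein-coding gene begins or ends, made up 59.8% ± 1.31 of ME and 36.0% ± 1.05 of Control peaks. Both differences had p = 0.1 in the exact permutation test (n = 3 each), with no overlap. Within a library pair of the same group, the signal ranks of the 7157 regions called in all 6 libraries correlated with r between 0.969 and 0.983. Between groups r was 0.610 to 0.648 over the same regions, which share their positions and are not independent replicates.

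Few regions were open in ME alone. Of the 30082 regions, 434 were gained (1.44%) and 14941 were lost (49.7%), while 7157 were called in all 6 libraries. Because ME lists were shorter by the ratio given above, the count of gained regions is bounded by list length. Next to the rule stood 54 regions with all 3 ME and 1 Control library, 171 with 2 ME and no Control library, and 2518 with 2 Control libraries and no ME library.

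Gained regions were mostly distal, as lost regions were. More than 1 kb from any gene end lay 82.7% of gained regions, 76.8% of lost regions and 33.2% of those called in all 6. More than 50 kb away lay 24.2%, 13.7% and 4.68%. Median widths were 324 bp for gained and 366 bp for lost regions. The median percentile of gained regions in ME was 32.6. Only 94 of the 434 had a mean percentile over 50, and 4 exceeded 90.

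The strongest gained region lay 2.69 kb from Dyrk1a, a protein kinase, at chr16:94698208-94699318, with percentiles of 97.1, 97.0 and 97.5. Next came a region 0.646 kb from the predicted gene LOC108167320 on chromosome 9, with 96.2, 96.2 and 96.6, which was called in all MA9 and all BN1 libraries. Then followed one inside Gse1 on chromosome 8, 44.4 kb from Gins2, a subunit of the replicative GINS complex, with 90.8, 91.1 and 90.7. A region inside Ano6, a phospholipid scramblase, followed with 91.0, 90.5 and 90.5. The spread between the 3 ME libraries was small in each of these regions. The Dyrk1a and Gins2 regions were called in all 3 MA9 and no BN1 library, and the Ano6 region in all 3 of both.

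A region 36.2 kb from Kif21a, a kinesin, had percentiles of 86.3, 88.1 and 85.3 and was called in no MA9 library but in 2 BN1 libraries. Akap5, a scaffold of protein kinase A, had a gained region with 83.9, 86.2 and 84.1. Ptpn11, the phosphatase SHP2, had a gained region 6.44 kb from its end with 82.5, 82.3 and 82.8. The Ptpn11 region adjoined another that was called in all 6 libraries and is described below.

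By gene, 398 of 11642 genes with a region had a gained one (3.42%) and 7024 a lost one (60.3%), and 373 of the 398 had just 1. Nrg4, a growth factor of the epidermal growth factor family, had 4. Speer4f2 had 7, and Gm7361, Gm8267, Zscan4c and Tas2r119 between 2 and 3. These belong to multicopy families whose reads could be split between near-identical copies, so their calls are uncertain.

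Granule genes of the promyelocyte had the most gained members of any list. Of 12 granule genes with a region, Mpo, Ctsg, Prtn3 and Ms4a3 had a gained one, against 3.42% of all genes. A lost one was found for 7 of the 12 (58.3%), near the 60.3% of all genes. At the Mpo start, chr11:87793309-87794184, ME percentiles were 77.0, 79.6 and 77.9, with no Control peak. A further Mpo region 3.35 kb away had 51.5, 54.0 and 45.5. Ctsg had 3 gained regions, the one over its start with 44.2, 45.4 and 37.6 and a pair 2.54 and 2.94 kb away. Prtn3 encodes proteinase 3, a serine protease of the same granules. Its gained region 1.13 kb from the gene had 54.0, 48.6 and 52.0. A further region, 1.41 kb from the gene and called in all 6 libraries, had ranks of 65.8, 73.7 and 72.1 in ME and 5.37, 9.89 and 7.95 in Control, among those 7157 regions. Elane, the gene of neutrophil elastase, had no promoter peak in any of the 6 libraries.

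The 7 genes with a lost region included Prss57 and Ctsc, proteases of these granules, Hp, the haptoglobin gene, and Cebpe, a factor of granule formation. Gfi1, a repressor that acts in granulocyte differentiation, had promoter percentiles of 75.0, 50.5 and 50.2 in Control and no ME peak. Clec12a, an inhibitory lectin receptor of myeloid cells, had Control peaks and no ME peak at its promoter. Srgn encodes serglycin, the proteoglycan that packs granule proteins. Its promoter had 99.9, 99.8 and 99.9 in Control and kept a peak in 2 ME libraries, at 2.53 and 14.5.

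Gained regions were also found in the Hoxa cluster. Of 6 genes of the cluster list with a region, Hoxa3, Hoxa7 and Hoxa9 had a gained one (3.42% of all genes did), and the neighbouring Evx1 had a lost one. The Hoxa7 region, 0.837 kb inside the gene end, had 53.5, 53.6 and 56.4. The Hoxa9 region at chr6:52226049-52226547 had 50.2, 55.7 and 45.0. The Hoxa3 region stood at the edge of calling, with 15.0, 24.9 and 0.05. A further Hoxa9 region was called in all 6 libraries, with percentiles of 48.2, 68.8 and 48.9 in ME and 35.8, 7.79 and 13.1 in Control. The 3 gained regions were called in all MA9 libraries and in no BN1 library. Of 10 Hoxa promoter windows, only the Hoxa3 one was called. Among the 3011 strongest peaks of each library, used for lists of equal length below, no Hoxa gene was gained.

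In the deposited lists, most cofactors and other known targets of MLL fusions had lost regions. Of 15 with a region, 13 had a lost one, beside 60.3% of all genes, and Jmjd1c alone a gained one. Without the third ME library, or without the first Control library, 2 had a gained one. A region called in all 6 libraries was found for 7 of the 15. With lists of equal length, described below, 6 genes of the list had a region. Of these, Cdk6 and Pbx3 had a gained one and Mef2c and Runx1 a lost one (33.3% each), beside 20.1% and 19.4% of all genes. Jmjd1c, a histone demethylase, gained at 35.1, 38.5 and 22.6 a region that lies inside Reep3. Its own promoter had a peak in all Control libraries and no ME library. The promoter of Meis1, the homeobox partner of HOXA9, had 57.5, 57.9 and 63.1 in Control and no ME peak. The Runx1 promoter was called in all 6, at 43.9, 48.8 and 48.9 in ME against 97.9, 97.7 and 98.7 in Control.

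Single genes of other lists had gained regions. Kit, the stem cell factor receptor, had a region 73.9 kb away with 54.8, 54.0 and 38.9, and Gata2, a progenitor factor, one 27.5 kb away with 31.4, 21.5 and 25.2. The transcription factor genes Maf, of monocytic cells, and Cebpb, of granulocytic cells, had gained regions with mean percentiles between 23.2 and 41.4. Regions nearest to the stress-response gene Ier3 and to Ccnd1, cyclin D1, had mean percentiles of 20.3 and 13.5. Spn, the leukocyte sialoprotein CD43, gained a region 12 kb away while its promoter was lost. The nearest gene of a pair of gained regions was Cdh5, VE-cadherin, of the stromal and endothelial list. One had 67.3, 67.0 and 72.2, and the other 6.59, 76.1 and 71.6, so that 1 library stood far below the others. By region, 2 of 13 stem and progenitor genes had a gained one and 8 a lost one, beside 3.42% and 60.3% of all genes. Of 14 stem and progenitor windows none was gained, 3 were lost and 1 was called in all 6. Over all windows these shares were 0.219%, 12.6% and 26.8%. None of 7 stromal and endothelial promoter windows was called in any of the 6 libraries.

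At the start of genes the same contrast was seen. A promoter window, from 250 bases before to 50 after the RefSeq start, could be placed for 16457 genes. Of these, 36 were gained (0.219%), 2071 lost (12.6%) and 4406 called in all 6 libraries. After Dyrk1a (95.9, 95.4 and 95.0), the strongest gained windows included Caprin1, an RNA-binding protein of stress granules, with 86.2, 82.7 and 82.7, and Mpo. Spry2, an inhibitor of receptor kinase signalling, had 71.4, 69.7 and 67.4. Mt2, a metallothionein, had 47.4, 57.7 and 46.3. The Notch ligand Jag1 and the nuclear receptor Nr4a2 were gained at lower percentiles.

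**Figure D1:**
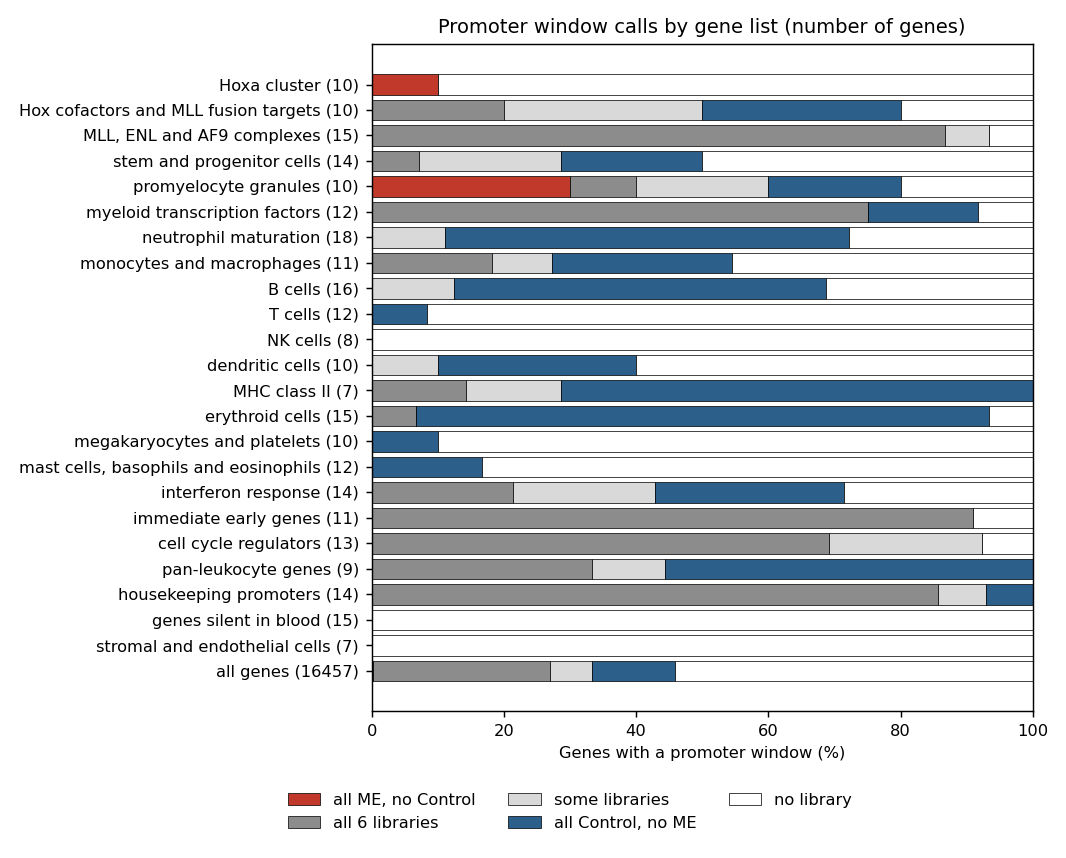
Share of genes (horizontal axis, %) in each gene list by the call of their promoter window, with the number of genes in parentheses. Red marks windows called in all ME and no Control library, blue the reverse, and the bottom bar gives all 16457 genes. The granule list has 3 of 10 genes in red and the erythroid list 13 of 15 in blue.

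The lost regions of highest percentile included those of mature neutrophil genes. S100a9 (chr3:90691227-90696108, 4882 bp wide) had Control percentiles of 99.96, 99.97 and 99.97, and S100a8 99.94, 99.94 and 99.95. Ngp, a granule protein of late neutrophil precursors, had 99.9, 99.9 and 99.7. A lost region of Cd74, from the MHC class II list, had a mean Control percentile of 99.9. None of these regions had a peak in any ME library. S100a9 was uncalled in MA9 and BN1 as well, while S100a8 and Ngp were called in all MA9 libraries at mean percentiles of 47.7 and 37.1.

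Of 18 neutrophil maturation genes with a promoter window, 11 were lost, none was gained and none was called in all 6, where all windows had 12.6% lost, 0.219% gained and 26.8% called in all 6. Retnlg, a resistin-like protein of neutrophils, had 98.1, 98.3 and 99.2 in Control. The lactoferrin gene Ltf had 64.6, 71.4 and 72.8, and Mmp8, Cxcr2, Csf3r, Padi4, Itgam and Mcemp1 were lost too. Camp, the cathelicidin gene, kept a peak in 2 ME libraries, at 2.5 and 9.27, against 64.9 to 78.1 in Control. Of 11 monocyte and macrophage windows 3 were lost and 2 called in all 6. By region, 11 of 13 monocyte genes and 15 of 17 neutrophil genes had a lost one, beside 60.3% of all genes. Its lysozyme gene Lyz2 was lost from 84.1, 86.3 and 87.1 in Control.

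Most erythroid promoters were lost. Of 15 windows, 13 were lost, against 12.6% of all windows. Hba-a1 had Control percentiles of 99.2, 98.1 and 98.9, and the beta globin gene Hbb-bs 81.9, 79.0 and 82.7. The erythroid transcription factor Klf1 had 49.5, 38.8 and 50.8. Tfrc, the transferrin receptor that dividing cells of many kinds use, was called in all 6, and 1 window was called in none.

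Most B cell promoters that Control had were uncalled in ME. Of 16 promoter windows 9 were lost, against 12.6% of all windows, and none was called in all 6. Bank1, a scaffold of B cell signalling, kept a promoter peak in 1 ME library, and a region 4.99 kb from it was called in all 6 with overlapping ranks. Lost windows included the antigen receptor chain Cd79a (82.1, 80 and 80.8 in Control) and the B lineage factor Pax5 (42.3, 44.7 and 53.1). Pou2af1 had 92.9, 92.8 and 93.6. Of 7 windows of MHC class II antigen presentation 5 were lost, H2-Aa with 77.2, 76.7 and 78.2. H2-DMa, a peptide-loading chaperone, was called in all 6, with 91.0, 89.9 and 88.4 in ME and 83.7, 79.9 and 73.3 in Control.

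Control itself had few promoter peaks at T and NK cell genes. Only Il7r of 12 T cell windows was lost, and 11 were called in no library. By region, 6 of 8 T cell genes had a lost one, beside 60.3% of all genes. All 8 NK cell windows were uncalled. Of 10 dendritic cell windows 3 were lost, of 10 megakaryocyte windows 1, and of 12 windows of mast cells, basophils and eosinophils 2. Beside 12.6% of all windows, the last pair of lists stood near the background. Of 14 interferon response windows 4 were lost and 3 called in all 6. All 15 windows of genes silent in blood were uncalled in every library.

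**Figure D2:**
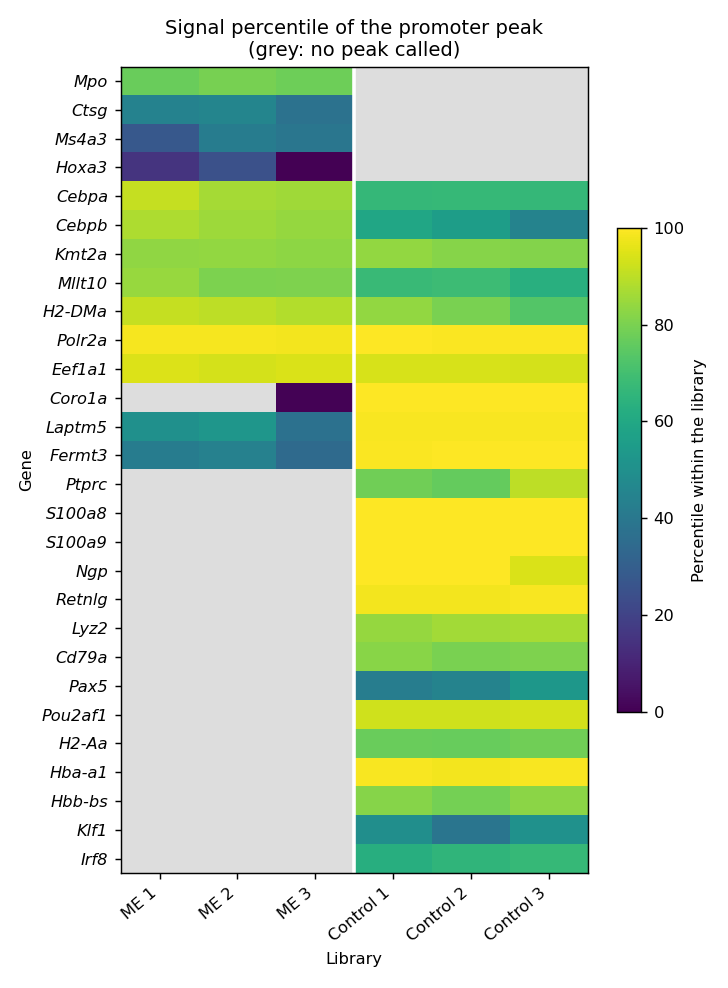
Percentile of the promoter peak's signal within its own library (colour) for named genes (rows) in the 6 libraries (columns), with grey where no peak was called. Mpo, Ctsg, Ms4a3 and Hoxa3 are coloured in ME alone. S100a8, Cd79a, Hba-a1 and the other genes from Ptprc downward are coloured in Control alone.

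The gene of the sorted antigen had no promoter call in ME. Ptprc, which encodes CD45, had promoter percentiles of 78.2, 76.3 and 90.04 in Control and no promoter peak in ME. A region 15.8 kb from its end was called in all 6, at ranks of 14.9, 1.55 and 5.18 in ME and 87.4, 86.6 and 88.2 in Control. Another, 38.9 kb away, fell by 47.8 rank points. A region 310.8 kb away, to which Ptprc is the nearest gene, had ranks of 65.4, 64.3 and 55.5 in ME and 0.24, 0.49 and 2.45 in Control. Of 9 pan-leukocyte windows 5 were lost, 3 were called in all 6 and none was gained, against 12.6%, 26.8% and 0.219% of all windows. The 3 were Laptm5, Vav1 and Fermt3, each lower in percentile in every ME library. Fermt3, the integrin activator kindlin-3, had 41.9, 43.8 and 34.6 in ME against 99.5, 99.8 and 99.8 in Control. Whether the sorted cells differed in CD45 level was not tested.

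Promoters used by all cells were mostly kept. Of 14 housekeeping windows 12 were called in all 6 libraries and 1, Psmb4, was lost. Over all windows, 26.8% were called in all 6 and 12.6% were lost, the background for each such count in this paragraph. Eef1a1, a translation elongation factor, had 94.6, 93.5 and 94.2 in ME and 94.0, 94.0 and 93.7 in Control. Polr2a, the largest RNA polymerase II subunit, had 98.6, 98.7 and 98.2 in ME and 99.6, 99.6 and 99.5 in Control. Other housekeeping promoters differed more in percentile. The mean percentile of B2m was 44.1 in ME and 98.6 in Control, and that of Ppia 98.7 and 88.8. Of 15 windows of the MLL, ENL and AF9 complexes 13 were called in all 6 and none was gained or lost. With lists of equal length, described below, 4 of the 15 were gained, Kmt2a, Dot1l, Men1 and Mllt10, against 3.11% of all windows, and none was lost. Kmt2a had 83.5, 83.6 and 83.0 in ME and 83.8, 81.7 and 81.4 in Control, so its groups overlapped only at the highest Control value. The Dot1l groups stood side by side at 78.3, 76.1 and 76.2 against 76.4, 74.5 and 74.4. Mllt10, the DOT1L cofactor AF10, was higher in ME with 84.6, 80.3 and 80.5 against 68.0, 68.7 and 63.0. Men1 was lower in ME, with 69.1, 74.6 and 73.4 against 83.3, 81.7 and 82.5. The limit of the equal-length lists, given below, falls at a lower percentile of ME lists than of Control lists. Called in all 6 were 10 of 11 windows of immediate early genes, 9 of 13 of cell cycle regulators and 9 of 12 windows of myeloid transcription factors.

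Cebpa and Cebpb, factors of granulocyte differentiation, were among the few list promoters with higher percentiles in ME. Cebpa had 91.3, 86.6 and 85.8 in ME and 66.4, 66.8 and 66.8 in Control. Cebpb had 87.7, 85.4 and 84.2 against 59.2, 55.6 and 44.9. The groups did not overlap for either gene. Irf8, a factor of monocytes, dendritic cells and B cells, had 62.5, 65.5 and 67.0 in Control and no ME peak.

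What ME kept of the wild-type regions followed strength and position. Of 23527 regions called in all Control libraries, 30.4% were called in all ME libraries and 63.5% in none. At gene ends 53.5% of 8939 were kept, and at distal positions 16.3% of 14588. Grouped by mean Control percentile, the kept share was 3.83% in the weakest decile and 87.8% in the strongest. In the strongest decile 93.4% of gene-end regions and 73.8% of distal regions were kept. The S100a8, S100a9, Ngp and Hba-a1 regions belonged to the 210 of 2352 strongest regions with no ME peak.

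**Figure D3:**
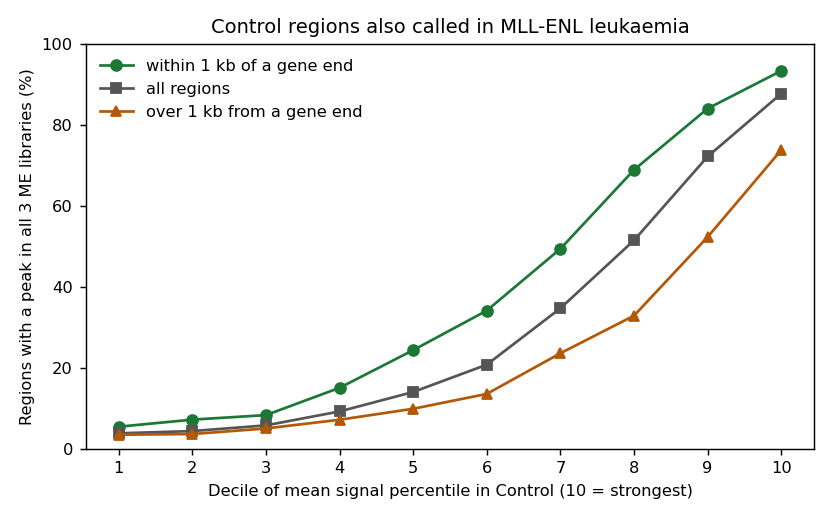
Share of Control regions with a peak in all 3 ME libraries (vertical axis, %) by decile of mean Control signal percentile (horizontal axis, 10 strongest), for gene-end, all and distal regions. The share for all regions runs from 3.83% to 87.8%, and the distal line lies below the gene-end line in every decile.

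To set the groups beside each other at 1 list length, the comparison was repeated with the 3011 peaks of highest signal in each library, which is the length of the shortest of the 12 lists. This limit fell between percentiles 64.8 and 68.8 of ME lists and between 88.2 and 89.3 of Control lists. Of 4435 regions, 805 were gained (18.2%) and 812 lost (18.3%). Of genes with a region, 20.1% had a gained and 19.4% a lost one. At promoter windows 512 were gained (3.11%) and 424 lost (2.58%). Gained regions were now mostly at gene ends, with 29.8% distal, against 48.8% of lost ones. Median widths were 559 bp and 1214 bp.

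Of the windows gained in the deposited lists, Dyrk1a, Caprin1, Mpo and Spry2 were gained here too, while Ctsg, Ms4a3, Mt2 and Hoxa3 fell outside the strongest 3011. Nr1d2, a circadian nuclear receptor, led the gained windows with equal-length percentiles of 94.3, 94.9 and 93.7. It was also called in all full Control lists, at 76.2, 73.4 and 77.4. Lost windows included S100a8, S100a9, Ngp, Retnlg, Pou2af1 and Hba-a1, as before. They also included genes that ME kept at lower percentiles, such as Laptm5, Fermt3 and Runx1. Few lineage promoters reached the strongest 3011 at all, so 4 of 18 neutrophil, 1 of 15 erythroid and 1 of 16 B cell windows were lost. The B2m and Fos promoters, called in all 6 full lists, were lost here as well.

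These calls depended on how the peaks were ordered. Ordered by the deposited −log10 p, 416 windows were gained and 531 lost, and ordered by signal per base 356 and 427. Under all 3 orders, 67 windows were gained and 65 lost. Kmt2a and H2-DMa were the only list genes among the first, and Laptm5 and Ctsc among the second. For Kmt2a the percentiles in the full lists, given above, were close, but those lists differed in length. Ranked over the regions called in all 6 libraries, its start had 78.1, 78.4 and 80.1 in ME and 49.55, 47.9 and 45.0 in Control. The difference was 31.3 points by signal, 38.4 by −log10 p and 38.8 by signal per base. Windows gained by signal had a median GC content of 68.3%, lost ones 57.0% and windows called in all 6 equal-length lists 63.7%; the part of base composition in the calls was not tested. The gene-end share of equal-length lists was 75.1% ± 0.240 in ME and 69.5% ± 1.74 in Control (n = 3 each, exact permutation p = 0.1). Ordered by −log10 p, the difference turned to -0.365 percentage points (exact permutation p = 0.8). Ordered by signal per base, the difference did not turn, so its direction was not shared by all 3 orders.

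The 7157 regions called in all 6 libraries allowed signal to be ranked over the same regions in every library. ME ranks lay above all Control ranks in 3038 (42.4%) and below them in 2652 (37.1%). At gene ends, 2055 (43%) of 4784 were higher and 1787 (37.4%) lower. A mean rise of 50 rank points or more was found in 157 and a fall of that size in 235. Of these, 148 and 189 kept their direction when ranked by −log10 p and by signal per base, and 49 and 20 kept the size. Peaks covered a median of 391, 394 and 370 bases of these regions in ME and 646, 610 and 631 in Control. Fallen regions had a median width of 1265 bp and risen ones 695 bp; the part of width in the ranks was not tested.

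The steepest fall was at Coro1a, coronin 1A, an actin-binding protein of leukocytes. Its ranks were 3.63, 1.27 and 0.39 in ME and 99.7, 99.8 and 99.7 in Control, a difference of -97.9 points. A region 63.3 kb from Zfp36l2, an mRNA decay factor, fell by 95.5. Osm, the cytokine oncostatin M, fell by 92.8, and Tnfaip2, a gene induced by tumour necrosis factor, by 91.2. The tetraspanin gene Cd37 fell by 90.5 and the complement receptor gene C5ar1 by 89.1. For these 6 the direction was the same under each of the other orders. Orai2, a calcium channel subunit, fell by 89.3, but its difference was 2.57 by signal per base.

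The steepest rise was in a region 63.2 kb from Btbd9, with ranks of 92.9, 93.0 and 92.7 in ME and 3.65, 0.68 and 3.86 in Control. Zbtb1, a zinc finger factor of lymphoid development, rose from 10.3, 8.27 and 5.48 to 96.1, 95.7 and 95.8. A Ptpn11 region that adjoins its gained one rose by 85.1 points. Lbp, the lipopolysaccharide-binding protein, rose by 82.7, and Mt1, a metallothionein next to Mt2, by 81.8. A region 42.1 kb from Ikzf1, the lymphoid factor Ikaros, rose by 80.9, and one over the start of Gpr160, an orphan receptor, by 79.7. Over the Cebpb start the rise was 70.5. Each of these rises had the same direction under the other 2 orders. The Lbp, Mt1 and Ikzf1 regions were called in all MA9 and BN1 libraries.

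**Figure D4:**
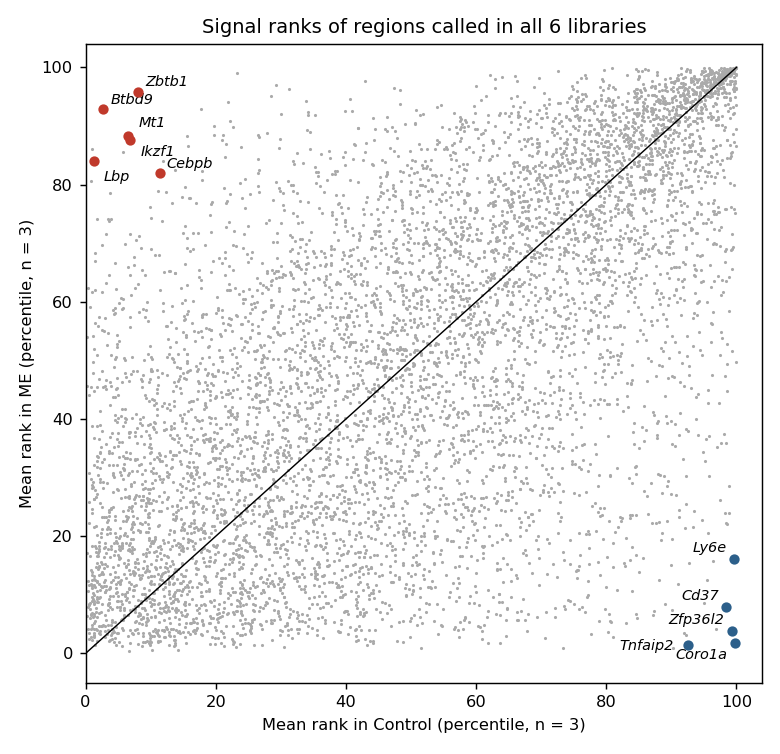
Mean signal rank in ME (vertical axis, percentile) against Control (horizontal axis) for the 7157 regions called in all 6 libraries, with the line of equal rank. Red points name regions that rose, such as Btbd9 by 90.1 points, and blue points regions that fell, such as Coro1a.

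The share of peaks on each chromosome was compared last. In 16 of 19 chromosomes (84.2%) the share of a library's peaks did not overlap between the groups, 8 being higher and 8 lower in ME. Chromosome 18 held 3.27% of ME and 2.62% of Control peaks, a ratio of 1.25, and chromosome 19 held 4.89% and 3.97%, a ratio of 1.23. Chromosome 14 had the lowest ratio, 0.87. With lists of equal length 15 of 19 chromosomes (78.9%) did not overlap, but not all in the same direction as before. The ratios were 1.31 on chromosome 18 and 1.24 on chromosome 19. They turned from 0.87 to 1.06 on chromosome 14, from 1.06 to 0.853 on chromosome 7 and from 1.03 to 0.952 on chromosome 11, with no overlap in either kind of list. All of these had an exact permutation p of 0.1 (n = 3 each). Copy number was not tested.

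**Figure D5:**
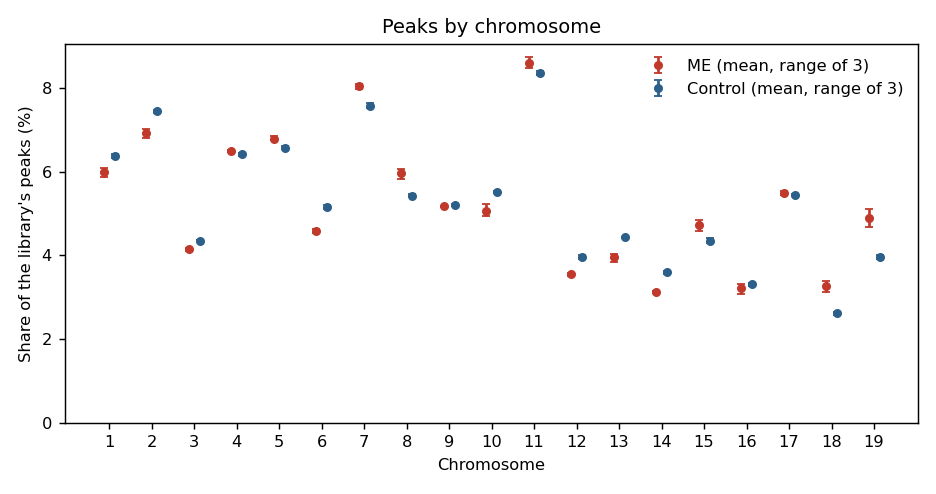
Share of each library's peaks (vertical axis, %) on chromosomes 1 to 19, as the mean and the range of 3 libraries in ME (red) and Control (blue). The groups lie furthest apart, in ratio, on chromosomes 18 and 19, where ME is higher.

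Short motifs in the promoters were counted as a description. Over all 20085 windows of 300 bases, 14.8% held the RUNX letters, against 5 of 45 gained windows and 15.4% of 2478 lost ones. The GATA letters were in 9.57% of all windows, in 8.27% of lost windows and in 4.02% of the 4952 windows called in all 6. The MYB letters were in 32.0% of all windows, the PU.1 letters in 3.18% and the CEBP letters in 1.76%. Matches of different motifs can overlap, and windows of 1 gene can share bases.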

How the data were processed

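The data were 1 peak list per library in narrowPeak layout, as deposited by the authors. Genrich (no version given), deepTools 3.5.1, Picard 3.2.0 and Bowtie2 2.5.4 are named, with GRCm38 (mm10), per the submitters' processing notes; options were not given in the sources used here. The deposited signal was never below 200.0 and is read here as an area under the significance curve. The deposited score equalled 1000 times signal per base, up to a maximum of 1000, in every list. The authors' −log10 p and −log10 q were used in alternatives only. Depth per library is not in the lists, so no counting error can be given.

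Peaks on chromosomes 1 to 19 of the 6 libraries were merged at an overlap of 1 bp or more. A region or promoter window was gained with a peak in all 3 ME and no Control libraries, and lost in the reverse case; no test was made per region. A region went to the protein-coding gene with the nearest end. Promoter windows and sequences came from RefSeq (GRCm38.p6), which held windows for 16457 of 20665 protein-coding genes and for 269 of 344 list genes. Single values per library were compared by two-sided exact permutation over 20 splits.

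The members and the 23 gene lists were chosen with earlier results of these data known. The genes named are those nearest to the strongest gained and lost regions, the regions of largest rank change, list members with a gained region, and up to 4 lost members per list; other list members, windows and neighbours were named after their values were seen. Alternatives were other list lengths, thresholds, windows and overlaps, each library left out, and the replicate numbers as a block. Orders by −log10 p and by signal per base were added after seeing the data. Merging and calling were tested on simulated data. Calculations used Python 3.11.15, numpy 2.4.6, pandas 2.3.3, scipy 1.17.1 and matplotlib 3.10.9. Some planned results are not reported here.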

Additional observations from a re-analysis of the deposited data

How the results depend on the processing

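List length and peak threshold set the size of the counts. Gained and lost regions numbered 434 and 14941 as deposited, 805 and 812 with 3011 peaks per list, 1755 and 2122 with 8546 peaks per list, and 212 and 9471 with a signal of 400 or more. With 3011 peaks per list, promoter windows were 512 gained and 424 lost, and lost regions were 1252 when 50% of a region had to be covered. Shared regions with ranks apart were then 764 higher and 623 lower, with 67 and 105 beyond 50 points; ranked by −log10 p, 142 fell that far. The gene-end share in equal lists turned to -0.365 when ordered by −log10 p. The causes were not tested, beyond there being fewer peaks in shorter lists.

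Leaving out 1 library gave 441 to 550 gained regions. It moved a list's count by more than 1.5 times in 8 of 276 cases, all of them counts of 5 or fewer; the stromal list's lost genes numbered 5, not 3, without the first or the third Control library. Same-numbered libraries of the 2 groups deviated together only weakly, with r of 0.0233, 0.00793 and 0.0186 over regions. Pairs of unlike number had lower r, from -0.0211 to 0.00153. With r this small, the numbers were not taken as pairs. With the replicate number as a block, the differences of -17749.7 peaks and of 23.8 and 5.66 percentage points of gene-end share had an exact p of 0.25, the smallest that 3 pairs allow. Unknown depth limits every statement that a region was not called.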
